A study of Mus musculus with 6 samples.

Results

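The genes of the mouse major histocompatibility complex (MHC), called H2 in this species, and of antigen presentation were examined in 2 populations of NKT1 cells. The set was chosen by name, whatever the values: every row of the deposited table whose symbol starts with H2- (except H2-Ke6, which encodes a metabolic enzyme), and B2m, Tap1, Tap2, Tapbp, Cd74, Ciita, Nlrc5, Cd1d1 and Cd1d2. This gave 52 of 47643 genes. NKT1 cells are invariant natural killer T (iNKT) cells that express the transcription factor T-bet. Thymic NKT1 cells of BALB/c mice, wild type in both groups, had been sorted by flow cytometry into CD4-positive and CD4-negative cells with 3 libraries each. The labels give no further allele, agent or time point. The sources used here give neither the ages of the mice nor whether a library pools animals. Nothing says that the replicates came from separate mice, and a p-value here reflects the spread among libraries, part of which may be technical.

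Class I MHC molecules are present on nearly all nucleated cells. A polymorphic heavy chain pairs with the light chain beta-2 microglobulin (B2m), is loaded in the endoplasmic reticulum with peptides carried in by the TAP transporter, and shows them to CD8 T cells. Class II molecules are pairs of alpha and beta chains, loaded with peptides in endosomes and shown to CD4 T cells, and are mostly made by B cells, dendritic cells, macrophages and thymic epithelium. Mouse T cells make little of them, unlike activated human T cells. NLRC5 is the transactivator of class I genes and CIITA that of class II genes. CD1d is a class I-like molecule that presents lipids, and is the molecule on which iNKT cells are selected in the thymus, by contact with CD4 CD8 double-positive thymocytes. BALB/c mice carry the d haplotype of H2, while the build mm10 named in the submitters' processing notes is the genome of C57BL/6, which carries the b haplotype. BALB/c also has a class I gene, H2-L, that C57BL/6 lacks. A count for an H2 gene is therefore of reads from d alleles that matched a b gene, and what this does to the levels was not tested.

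The promoters of class I and class II genes share a short module, with an X2 element and a CCAAT (Y) box, to which CIITA and NLRC5 are recruited through other proteins, and class I promoters add a site for NF-kappaB and an interferon-stimulated response element (ISRE). The 200 bases before the RefSeq start of 7 genes are printed here because these genes span the range of levels in the table, from the top (B2m, H2-D1, H2-K1, H2-T23) through class II genes near the lower limit (H2-Aa, H2-Eb1) to a gene with no count (H2-M10.1). The sequences are those of C57BL/6 (RefSeq, build GRCm38.p6), 5′ to 3′ on the strand of the gene, not of BALB/c. Capitals mark matches, on either strand, to GGGATTCCC (the core of an NF-kappaB site), GAAGTGAAA (the ISRE as it stands in class I promoters), GAAA, any 2 bases and GAAA (an ISRE consensus), TGACG (X2) and CCAAT. The windows of the minus-strand genes are chr17:34000348-34000547 (H2-K1), chr17:36032702-36032901 (H2-T23), chr17:34287824-34288023 (H2-Aa) and chr17:36326151-36326350 (H2-M10.1). Those of the plus-strand genes are chr17:35262894-35263093 (H2-D1), chr2:122147487-122147686 (B2m) and chr17:34305667-34305866 (H2-Eb1).
H2-K1: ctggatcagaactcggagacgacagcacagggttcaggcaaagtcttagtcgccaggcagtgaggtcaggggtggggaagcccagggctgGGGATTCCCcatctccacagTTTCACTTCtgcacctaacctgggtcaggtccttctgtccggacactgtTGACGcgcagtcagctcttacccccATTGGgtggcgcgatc
H2-D1: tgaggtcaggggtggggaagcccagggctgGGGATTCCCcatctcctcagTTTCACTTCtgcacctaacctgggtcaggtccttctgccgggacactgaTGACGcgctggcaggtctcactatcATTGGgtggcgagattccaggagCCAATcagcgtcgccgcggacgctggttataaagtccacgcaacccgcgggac
H2-T23: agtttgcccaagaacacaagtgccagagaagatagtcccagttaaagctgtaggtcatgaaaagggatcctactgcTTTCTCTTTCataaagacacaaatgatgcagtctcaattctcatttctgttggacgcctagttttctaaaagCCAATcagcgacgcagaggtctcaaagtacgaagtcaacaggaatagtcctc
B2m: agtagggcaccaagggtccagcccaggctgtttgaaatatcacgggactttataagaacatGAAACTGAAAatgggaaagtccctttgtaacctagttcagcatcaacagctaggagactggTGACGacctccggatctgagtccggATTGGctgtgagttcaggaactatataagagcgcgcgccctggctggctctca
H2-Aa: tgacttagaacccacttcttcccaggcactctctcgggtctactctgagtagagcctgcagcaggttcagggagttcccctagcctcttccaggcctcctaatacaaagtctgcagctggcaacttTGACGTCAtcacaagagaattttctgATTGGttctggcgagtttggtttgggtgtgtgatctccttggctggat
H2-Eb1: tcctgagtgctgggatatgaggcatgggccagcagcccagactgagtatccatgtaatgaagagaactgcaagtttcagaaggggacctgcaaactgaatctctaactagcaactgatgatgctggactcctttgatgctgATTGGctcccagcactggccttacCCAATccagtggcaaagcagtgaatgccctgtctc
H2-M10.1: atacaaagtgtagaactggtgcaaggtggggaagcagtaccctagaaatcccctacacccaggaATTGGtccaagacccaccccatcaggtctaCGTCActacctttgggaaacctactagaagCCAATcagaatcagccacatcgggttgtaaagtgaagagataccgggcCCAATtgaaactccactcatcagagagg

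H2-K1 and H2-D1 held the NF-kappaB letters and the class I ISRE letters in this order, followed by TGACG and a CCAAT box. B2m had an ISRE consensus, TGACG and a CCAAT box, and H2-T23 an ISRE consensus and a CCAAT box. H2-Aa had TGACG, in a palindrome that matches on both strands, and a CCAAT box, and H2-Eb1 had CCAAT boxes alone. H2-M10.1, with no count, held TGACG and CCAAT 3 times. RefSeq had a window for 33 of the 52 genes. Over all 32843 windows of this length GGGATTCCC was in 70 (0.213%), and among the 33 it was in 4, those of H2-K1, H2-D1, H2-Q6 and H2-Q7. GAAGTGAAA was in 0.308% of all windows and in 7 of the 33, all of class I genes that were tested. GGGATTCCC and GAAGTGAAA are both forms known from class I promoters, so both counts were partly set in advance. GGGATTCCC was also shortened to this core after a longer form had been searched. The genes in these counts are related and are not separate observations. The ISRE consensus was in 2.27% of all windows and in 3 of the 33, and TGACG in 15.7% and in 13 of the 33. CCAAT was in 29.4% of all windows, in 15 of the 18 windows of tested members and in 9 of the 10 of members with no count. A match of letters describes these windows and does not show a bound site. Likewise the lack of a match, as for TGACG in H2-Eb1, does not show that the element is absent.

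Totals of estimated counts were 40480468 to 53145898 per library, and levels are given as CPM, the counts scaled to a common library size after TMM correction, which allows for differences in composition. All 52 members together took 0.739% to 0.893% of the library size after TMM correction. Cd4, the sort marker, stood at 508, 401 and 449.8 CPM in CD4-positive and 16, 10.9 and 41.2 CPM in CD4-negative libraries, as labelled. Markers of T cells, of iNKT cells and of the NKT1 fate (Cd3e, Trac, Zbtb16, Tbx21, Il2rb, Klrd1, Xcl1 and Cxcr3) summed to 3603 to 4728 CPM in CD4-positive and 3578 to 4108 CPM in CD4-negative libraries, and all 8 were present in each library. The log2 difference was above 0 for 5 and below 0 for 3. The groups did not overlap for 2, Trac and Zbtb16, both higher in CD4-positive cells, against 9.41% of all tested genes. Zbtb16 was at 106 ± 40.9 against 61.9 ± 1.82 CPM (mean ± SD, adjusted p = 0.804 by edgeR). CD4-negative replicate 3 had counts for 13804 genes where the others had 15320 to 16319. It and CD4-positive replicate 1 had 1.33% and 1.35% of counts from mitochondrial genes, where the others had 3.51% to 5.19%. These 2 libraries were the lowest 2 for 3 tested members (H2-T23, Nlrc5 and H2-M3) and the highest 2 for 8 (Tapbp, Tap2, H2-T24, H2-Q5, H2-Q7, H2-T10, Cd74 and H2-Ab1), against 22.3% and 21.4% of all tested genes. This pairing was looked at after the values were seen and its part in the results was not tested. Members whose direction turns on CD4-negative replicate 3 are given with and without it.

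Of the 52 members 31 had enough counts to be tested, 7 had a few counts and 14 had none. B2m, the class I heavy chain genes H2-D1, H2-K1, H2-T23, H2-Q6, H2-Q4 and H2-T22, and the peptide loading genes had means over 100 CPM, and most class II genes were near the lower limit in both populations, as the plot of values by library shows. No member differed between CD4-positive and CD4-negative cells by edgeR's quasi-likelihood test at an adjusted p under 0.05, where 27 of 12760 tested genes did (0.212%, with 0.0705% higher and 0.141% lower in CD4-positive cells). At an unadjusted p under 0.05 there was 1 member, Cd1d1, against 567 (4.44%) of all tested genes. DESeq2 and limma-voom called no member either, each with 1 member at an unadjusted p under 0.05. In 7 of the 31 tested members (22.6%) the libraries of the groups did not overlap, against 9.41% of all tested genes. These were H2-K1, H2-Q4, H2-Q6, H2-DMa, Ciita and H2-Aa, higher in CD4-positive cells (6 members, against 4.84% of all tested genes), and Cd1d1, lower (4.57%). The first 3 share reads with each other or with further class I genes and are not separate observations. In bulk RNA, fewer cells with a transcript and less of it per cell cannot be told apart.

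**Figure D1:**
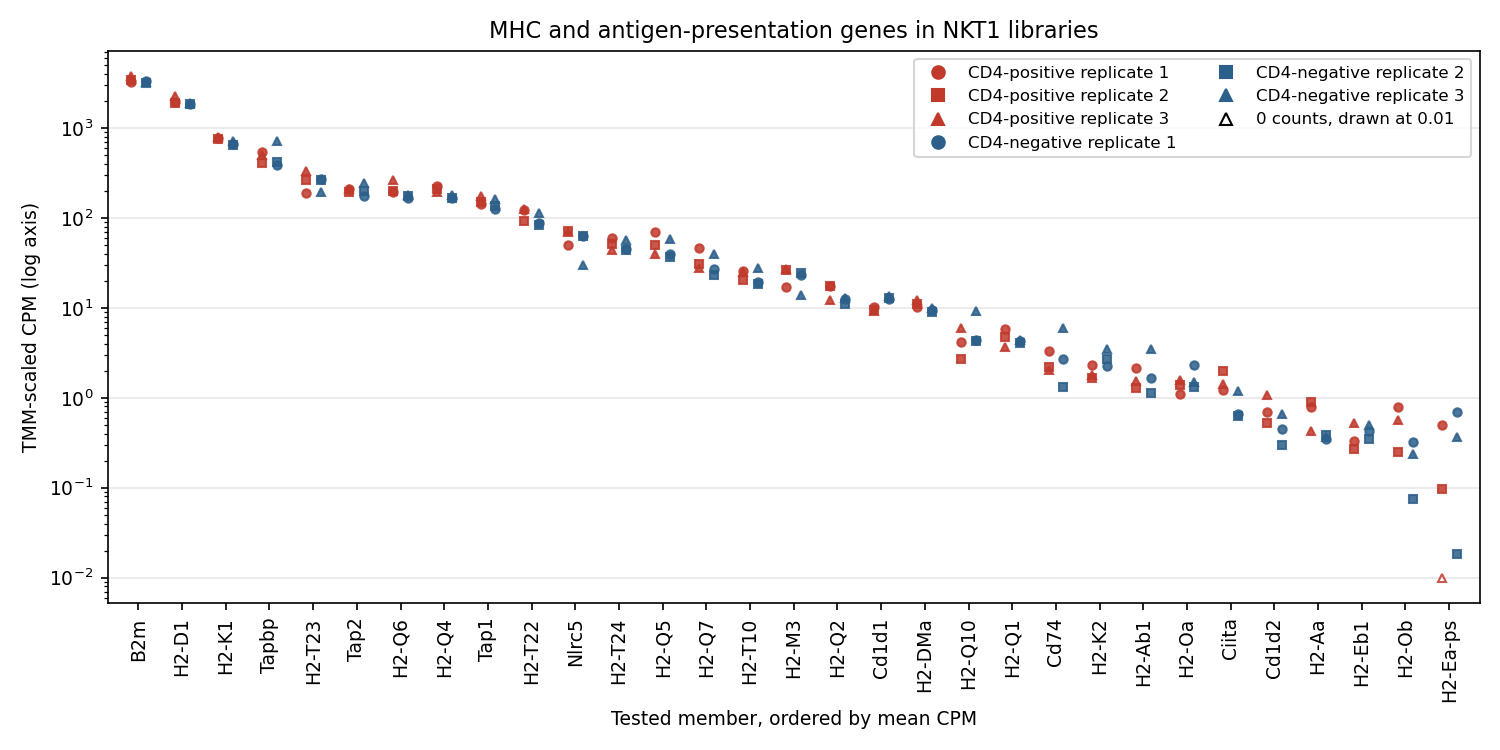
TMM-scaled CPM (log axis) of the 31 tested members in each of the 6 libraries, ordered by their mean; red points are CD4-positive and blue points CD4-negative libraries, and the shape gives the replicate. Levels run from a mean of 3365 CPM for B2m to under 1 CPM for H2-Eb1, H2-Ob and H2-Ea-ps, and the colours overlap in 24 of the 31 genes.

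The log2 differences (CD4-positive minus CD4-negative) of the 31 tested members had a median of 0.14, against -0.0059 over all tested genes, and 21 of them (67.7%) were above 0, against 48.9% of all tested genes. Among the class I heavy chain genes, with the pseudogene H2-K2 counted, 13 of 15 were above 0, with a median of 0.19. These are descriptions, since near-identical genes share reads and all members are read from the same 6 libraries. For 20 of the 31 the 95% interval of the difference lay within 2-fold in either direction, and for the other 11, all under 10 CPM in every library, it reached past 2-fold. Over all tested genes 65.1% had an interval within 2-fold.

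**Figure D2:**
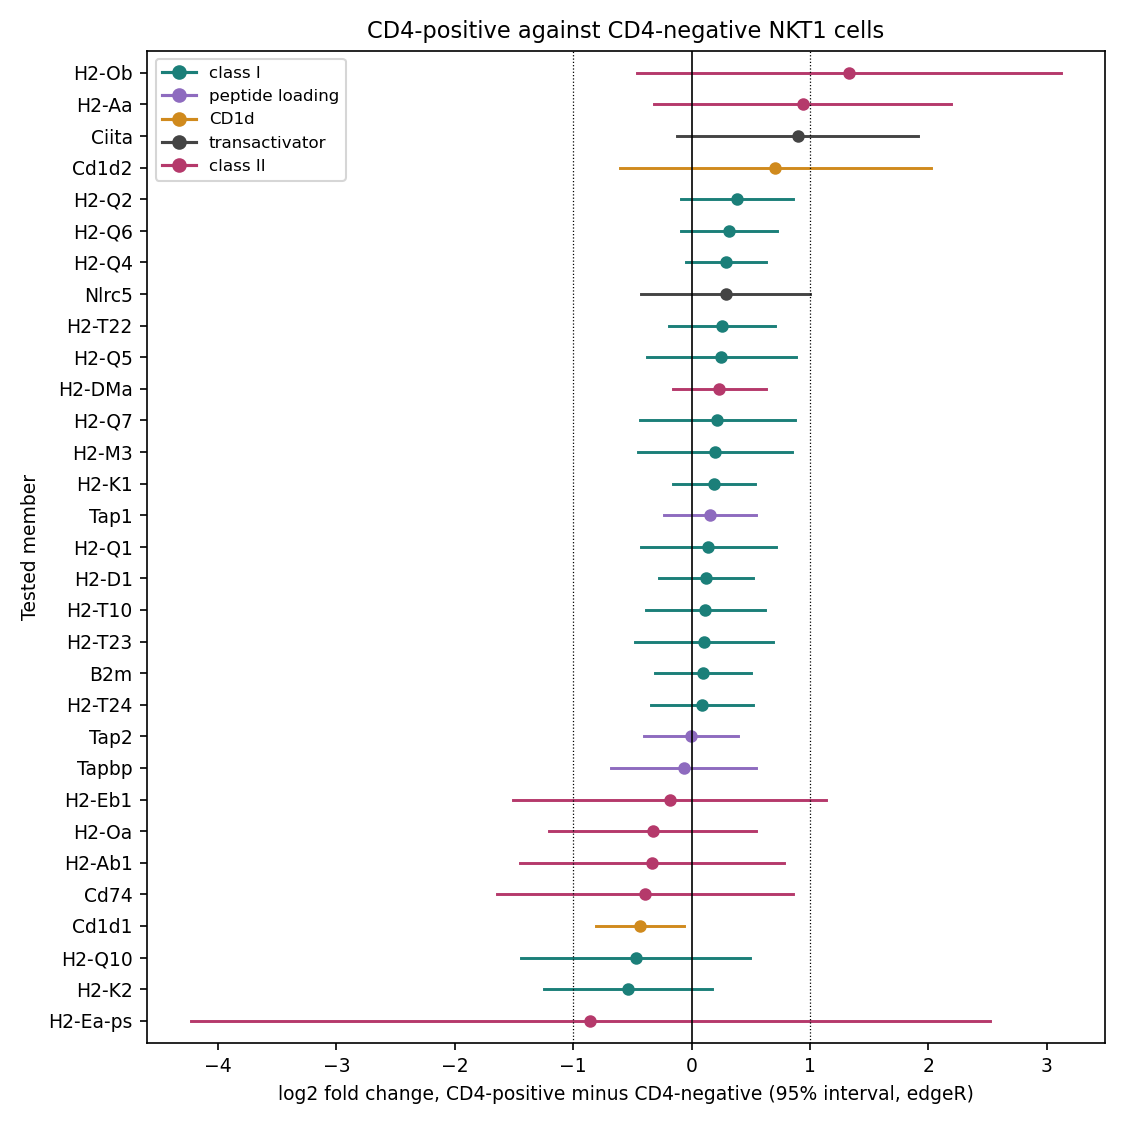
log2 fold change of each tested member, CD4-positive minus CD4-negative, with its unadjusted 95% interval from edgeR; dotted lines mark 2-fold and colours the class of gene. The intervals of all members but Cd1d1 (-0.81 to -0.065) include 0, and the widest are those of H2-Ea-ps and H2-Ob.

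B2m, the light chain of all class I molecules and of CD1d, had the highest level. It stood at 3233, 3408 and 3787 CPM in CD4-positive replicates 1, 2 and 3 and 3330.3, 3193 and 3237 CPM in CD4-negative replicates 1, 2 and 3 (chromosome 2, 122147686 to 122153083, GRCm38). The groups overlapped, and the highest value was that of CD4-positive replicate 3. The difference was small and narrowly bounded (a log2 difference of 0.10 with SE 0.17 and 95% interval -0.31 to 0.50). B2m had whole counts in every library and shared none of its 75-base stretches with another gene in GENCODE M21, so its value does not depend on how reads were divided.

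The classical heavy chains H2-D1 and H2-K1, which present peptides to CD8 T cells, came next. H2-D1 was at 1920.4, 1901 and 2280.3 CPM in CD4-positive and 1864, 1845 and 1905 CPM in CD4-negative libraries (a log2 difference of 0.12 with SE 0.17 and 95% interval -0.28 to 0.52), with overlapping groups (chromosome 17, 35262730 to 35267499). H2-K1 was at 767, 756 and 784 CPM in CD4-positive and 657, 653 and 714 CPM in CD4-negative libraries (chromosome 17, 33996017 to 34000347). Each CD4-positive library was above each CD4-negative library for H2-K1, by 1.14-fold between the groups, and this did not pass the test (a log2 difference of 0.19 with SE 0.15 and 95% interval -0.16 to 0.53, unadjusted p = 0.239). Levels were also scaled per kilobase of annotated exon, with the exons of all isoforms joined. This need not be the length expressed, so genes can be compared only roughly. So scaled, B2m was at 3912 CPM (3713 to 4403 over the 6 libraries), H2-D1 at 757 (715 to 884) and H2-K1 at 246 (222 to 267). On this scale H2-D1 exceeded H2-K1 by 2.85 to 3.31 times in every library, and H2-L has no row of its own in the table. Counts of H2-D1 and H2-K1 were fractional in all 6 libraries, and 5.4% and 3.1% of their stretches also occur in another gene. The pseudogene H2-K2 was at 1.92 ± 0.333 against 2.79 ± 0.609 CPM (mean ± SD, n = 3 each).

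**Figure D3:**
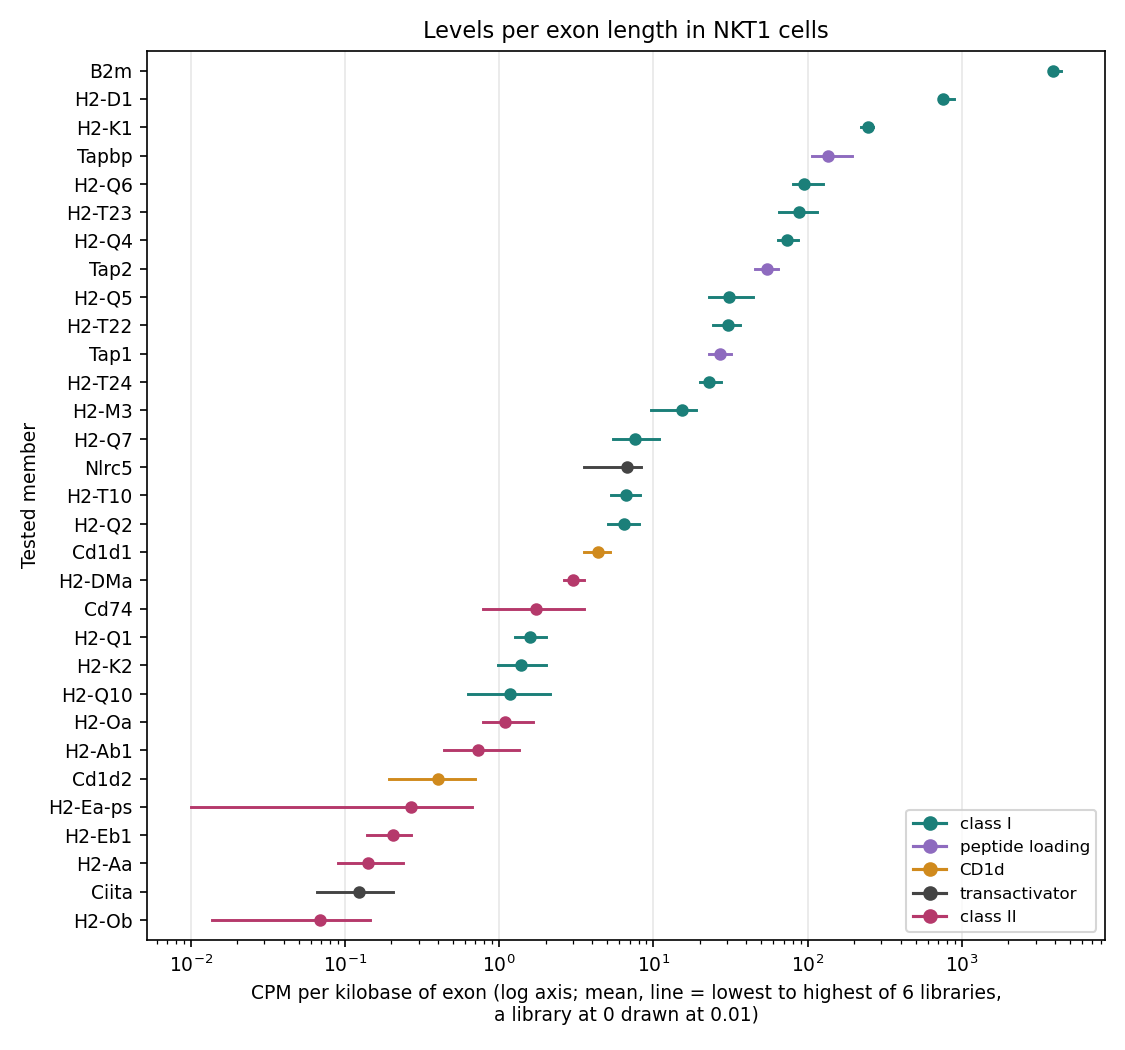
CPM per kilobase of exon (log axis) of the 31 tested members; points are means and lines run from the lowest to the highest of the 6 libraries, coloured by class of gene. B2m (3912), H2-D1 (757) and H2-K1 (246) lie at the top, and the class II chains, Ciita, H2-Ob and Cd1d2 lie below 1.

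The Q region of H2 encodes nonclassical class I molecules, among them Qa-2 (H2-Q6 to H2-Q9), which can be anchored in the membrane by a lipid. H2-Q6 was at 192, 198 and 262 CPM in CD4-positive and 167, 176 and 181 CPM in CD4-negative libraries (a log2 difference of 0.32 with SE 0.17 and 95% interval -0.09 to 0.72, unadjusted p = 0.106). H2-Q4, which encodes Qb-1, was at 226, 208 and 191 CPM in CD4-positive and 165, 166 and 179.8 CPM in CD4-negative libraries (a log2 difference of 0.29 with SE 0.14 and 95% interval -0.05 to 0.63, unadjusted p = 0.0827). In both genes all CD4-positive libraries were above all CD4-negative libraries. The 8 Q genes summed to 562, 512 and 542 CPM in CD4-positive and 420.1, 422 and 485 CPM in CD4-negative libraries, without overlap. The 15 tested class I heavy chain genes were also summed, the pseudogene H2-K2 included. They stood at 3663, 3626 and 4161 CPM in CD4-positive and 3391, 3356 and 3509 CPM in CD4-negative libraries, without overlap. Both sums hold H2-Q4 and H2-Q6 and are not separate observations. How often sums of other genes do not overlap was not tested. All 52 members summed to 7868, 7888 and 8927 CPM in CD4-positive and 7503, 7389 and 7925 CPM in CD4-negative libraries, with overlap. The Q sum does not depend on how reads were divided within the Q region, though it can still share reads with the T region and with H2-K1 and H2-D1.

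Division of reads matters here because the Q genes resemble each other. Of the 75-base stretches of H2-Q6 17.9% also occur in another gene, of H2-Q7 17.0%, of H2-Q5 21.2% and of H2-Q4 7.0%. Counts of H2-Q5 and H2-Q7 were fractional in all 6 libraries and those of H2-Q4 and H2-Q6 in 5, which is how counts appear when a read fits several genes. H2-Q7 was at 46.5, 30.6 and 27.8 CPM in CD4-positive and 27, 23.3 and 39.9 CPM in CD4-negative libraries and H2-Q5 at 70.3, 50.2 and 39.3 CPM in CD4-positive and 40, 36.7 and 57.5 CPM in CD4-negative libraries. In both the highest values were those of CD4-positive replicate 1 and CD4-negative replicate 3, so the groups overlapped widely, and without CD4-positive replicate 1 the log2 difference of H2-Q7 went from 0.22 to -0.039. The ratio of H2-Q6 to H2-Q7 per kilobase ranged from 8.43 to 19.3 over the libraries. H2-Q2 was at 15.8 ± 3.19 against 12.1 ± 0.983 CPM (log2 0.38, unadjusted p = 0.097), H2-Q1 at 4.72 ± 1.07 against 4.28 ± 0.175 CPM and H2-Q10, known as a secreted molecule of liver, at 4.29 ± 1.63 against 5.95 ± 2.84 CPM. The log2 difference of H2-Q10 was -0.47 with all libraries and -0.0043 without CD4-negative replicate 3.

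The T region holds further nonclassical genes. H2-T23 encodes Qa-1, which presents leader peptides of other class I molecules to the NK receptor CD94/NKG2A. It was at 187, 265 and 333 CPM in CD4-positive and 273, 264 and 191 CPM in CD4-negative libraries (a log2 difference of 0.11 with SE 0.25 and 95% interval -0.48 to 0.69). The low values were CD4-positive replicate 1 and CD4-negative replicate 3, and the log2 difference was -0.036 without the latter. H2-T22 and H2-T10 are known as ligands of a set of gamma-delta T cell receptors. H2-T22 was at 122, 92.6 and 124 CPM in CD4-positive and 88.4, 82.6 and 112 CPM in CD4-negative libraries and H2-T10 at 25.5, 20.4 and 24.9 CPM in CD4-positive and 19.2, 18.2 and 28 CPM in CD4-negative libraries, with overlapping groups in both. The log2 difference of H2-T10 was 0.12, and 0.34 without CD4-negative replicate 3. They share 15.7% and 16.0% of their 75-base stretches with each other, both were fractional in all libraries, and each overlaps exons of a gene on the opposite strand. Their sum was 147, 113 and 149 CPM in CD4-positive and 108, 101 and 140.0 CPM in CD4-negative libraries. H2-T24 stood at 51.7 ± 8.04 against 48.6 ± 7.08 CPM with whole counts in every library (log2 0.089; -0.030 without CD4-positive replicate 1). H2-T3, the thymus leukaemia antigen, had 0 to 10 counts in a library and was not tested.

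In the M region H2-M3, which presents N-formylated peptides of bacteria and mitochondria, was at 17.1, 26.6 and 27.2 CPM in CD4-positive and 23.1, 24.6 and 13.9 CPM in CD4-negative libraries (a log2 difference of 0.20 with SE 0.28 and 95% interval -0.45 to 0.85). Its low values were again CD4-positive replicate 1 and CD4-negative replicate 3, and without the latter the log2 difference was -0.012. It was the one M gene of 14 with enough counts to be tested. H2-M1, H2-M9, H2-M11 and members of the H2-M10 group, most of which are known from sensory neurons of the vomeronasal organ, had no count, except H2-M10.5 with 6 counts in CD4-positive replicate 1. H2-M2 had 4 and 11 counts in CD4-positive replicates 1 and 3 and none elsewhere. In all 11 M genes had no count in any library, as had H2-Eb2 and the class II pseudogenes H2-Pa and H2-Pb. No count allows up to 3 counts, or 0.0555 to 0.0783 CPM in a library, by counting error only. H2-Bl, a class I gene annotated as a polymorphic pseudogene, had 61 counts in CD4-negative replicate 1 and at most 1.01 in any other library, and H2-Q3 had 11 counts in CD4-negative replicate 3 alone.

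The genes that load class I molecules were expressed in every library and none passed the test. Tap1 and Tap2, the subunits of the peptide transporter, were at 143, 151 and 174 CPM in CD4-positive and 125, 134 and 161 CPM in CD4-negative libraries and at 210.5, 194 and 210.3 CPM in CD4-positive and 173, 200.1 and 244 CPM in CD4-negative libraries. Their log2 differences were 0.16 (95% interval -0.23 to 0.55) and -0.0046 (-0.40 to 0.40). Tapbp, or tapasin, which bridges TAP and the empty heavy chain, was at 537, 409 and 494 CPM in CD4-positive and 387, 415 and 706 CPM in CD4-negative libraries (a log2 difference of -0.067 with SE 0.26 and 95% interval -0.68 to 0.55). CD4-negative replicate 3 held the highest value and CD4-negative replicate 1 the lowest, so the spread within a group exceeded the difference between the groups. Without CD4-negative replicate 3 the log2 difference of Tapbp was 0.26 and that of Tap2 0.14. Exons of Tap1, Tap2 and Tapbp overlap those of genes on the opposite strand, and the strand setting of the counting is not given in the sources used here. Exons of Tapbp also overlap those of Zbtb22 on the same strand. Counts of Tap1 and Tap2 were fractional in 6 libraries and those of Tapbp in 5. Tap1 and Tap2 shared 0.0% of their stretches with another gene, and Tapbp 1.1%. Stretches were compared in the direction of the transcript only, so an overlap on the opposite strand could not count as shared. Why these counts were fractional was not tested.

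Nlrc5, the class I transactivator, was at 49.3, 70.8 and 69.6 CPM in CD4-positive replicates 1, 2 and 3 and 62.9, 62.4 and 30.1 CPM in CD4-negative replicates 1, 2 and 3 (chromosome 8, 94434356 to 94527272). CD4-negative replicate 3 lay far below the others and CD4-positive replicate 1 was the next lowest, while the other 4 libraries stood between 62.4 and 70.8 CPM. The difference was within this spread (a log2 difference of 0.29 with SE 0.30 and 95% interval -0.43 to 0.999), and without CD4-negative replicate 3 it was 0.017. Ciita, the class II transactivator, had 59, 102 and 73 counts in CD4-positive and 31, 34 and 45 counts in CD4-negative libraries (chromosome 16, 10480059 to 10528418). This is 1.21, 1.97 and 1.41 CPM in CD4-positive and 0.667, 0.629 and 1.17 CPM in CD4-negative libraries. The groups did not overlap, but CD4-negative replicate 3 was just under CD4-positive replicate 1, and the 1.86-fold difference did not pass the test (a log2 difference of 0.90 with SE 0.44 and 95% interval -0.12 to 1.92, unadjusted p = 0.077). With any single library left out the log2 difference of Ciita ranged from 0.68 to 1.24, and its unadjusted p by edgeR from 0.0208 to 0.249. The smallest difference was without CD4-positive replicate 2, with the largest p. The largest was without CD4-negative replicate 3, with the smallest p and an adjusted p of 0.600 by edgeR. Per kilobase Nlrc5 was at 6.77 CPM (3.55 to 8.34) and Ciita at 0.123 (0.066 to 0.206).

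Class II chains were barely detected. The A molecule is made of H2-Aa and H2-Ab1, and the E molecule of H2-Eb1 and an alpha chain whose gene is functional in BALB/c and listed as the pseudogene H2-Ea-ps in the C57BL/6 annotation. H2-Ab1 had 61 to 133 counts in a library, or 2.14, 1.29 and 1.54 CPM in CD4-positive and 1.68, 1.13 and 3.47 CPM in CD4-negative libraries. H2-Aa had 14 to 47 counts, or 0.781, 0.906 and 0.424 CPM in CD4-positive and 0.344, 0.388 and 0.365 CPM in CD4-negative libraries (log2 0.94, 95% interval -0.32 to 2.19). Its groups did not overlap, by 0.424 CPM in CD4-positive replicate 3 against 0.388 CPM in CD4-negative replicate 2. H2-Eb1 had 14 to 27 counts and H2-Ea-ps 0 to 32. Per kilobase H2-Ab1 was at 0.73, H2-Aa at 0.141, H2-Eb1 at 0.205 and H2-Ea-ps at 0.267 CPM, where H2-K1 was at 246. The ratio of H2-Ab1 to H2-Aa, partners in the same molecule, ranged from 2.11 to 14.1 per kilobase over the libraries.

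Cd74, the invariant chain that escorts class II molecules to endosomes, was at 3.33, 2.18 and 2.02 CPM in CD4-positive and 2.69, 1.31 and 5.92 CPM in CD4-negative libraries. CD4-negative replicate 3 was the highest and CD4-negative replicate 2 the lowest. The log2 differences of Cd74 and H2-Ab1 were -0.39 and -0.33 with all libraries and 0.33 and 0.24 without CD4-negative replicate 3, and neither passed the test. H2-DM, which exchanges the invariant chain's fragment for peptides, needs an alpha and a beta chain. H2-DMa was at 10.3, 10.9 and 12.3 CPM in CD4-positive and 9.46, 9.06 and 9.86 CPM in CD4-negative libraries, with all CD4-positive libraries higher (a log2 difference of 0.24 with SE 0.17 and 95% interval -0.16 to 0.63), whereas the beta chain genes H2-DMb1 and H2-DMb2 had 17 counts and 1 count in all 6 libraries together. The annotation places exons of H2-DMa over those of Brd2 on the opposite strand. H2-Oa and H2-Ob, the chains of H2-DO, an inhibitor of H2-DM, were at 1.36 ± 0.236 against 1.71 ± 0.54 CPM and 0.53 ± 0.267 against 0.21 ± 0.126 CPM, with overlapping groups.

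Markers of the cells that make class II were measured beside these genes. Of 10 B cell markers Pax5 had no count and Ms4a1 had 2 counts in a single library, while the list summed to 3.62 to 4.75 CPM in CD4-positive and 5.88 to 7.07 CPM in CD4-negative libraries, mostly from Cd22 and Blk, of which Cd22 was at 3.51 ± 0.201 against 4.8 ± 0.335 CPM, lower in each CD4-positive library. The 13 dendritic cell and myeloid markers summed to 96.4 to 147 CPM in CD4-positive and 106 to 193 CPM in CD4-negative libraries, nearly all of it Cst3. All 8 that were tested had a log2 difference below 0 and none was called, with Itgax and Xcr1 at an unadjusted p under 0.05. Itgax was at 0.0617, 0.0771 and 0 CPM in CD4-positive and 0.43, 0.462 and 0.965 CPM in CD4-negative libraries (adjusted p = 0.455 by edgeR). Flt3 had at most 3 counts in a library and Clec9a had 8 in CD4-negative replicate 3 and 1 elsewhere. Zbtb46, a factor of classical dendritic cells, was at 0.74, 0.385 and 0.193 CPM in CD4-positive and 0.387, 0.314 and 1.36 CPM in CD4-negative libraries. Over the whole list CD4-negative replicate 3 was the highest library for Cst3, Xcr1, Cd68, Zbtb46, Itgax and Clec9a and not for the other 7, of which Lyz2 was lowest there and Itgam had no count. The 9 thymic epithelium markers summed to 50.2 to 76.8 CPM in CD4-positive and 54.4 to 72.5 CPM in CD4-negative libraries, mainly from Ly75, with Foxn1, Aire and Psmb11 at 0 in 4 of the 6 libraries each. Their part in the class II values was not tested. The 7 immature thymocyte markers summed to 18.8 to 107 CPM in CD4-positive and 21.3 to 141 CPM in CD4-negative libraries, of which Cd8b1 is a part.

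Cd1d1, whose product presents lipids to iNKT cells, was the member with the smallest p. It was at 10.2, 9.48 and 9.12 CPM in CD4-positive replicates 1, 2 and 3 and 12.7, 12.9 and 13.4 CPM in CD4-negative replicates 1, 2 and 3 (chromosome 3, 86995834 to 86999441). The groups did not overlap, and their SDs were small beside the gap (9.59 ± 0.527 against 13 ± 0.369 CPM, n = 3 each). The level in CD4-negative cells was 1.35 times that in CD4-positive cells (a log2 difference of -0.44 with SE 0.16 and 95% interval -0.81 to -0.07). It did not pass over all genes: its unadjusted p was 0.027 and its adjusted p 0.874 by edgeR, and over all alternatives the adjusted p was 0.414 or more. The log2 difference stayed between -0.48 and -0.40 when any single library was left out. In these fits its unadjusted p by edgeR ranged from 0.031 to 0.083. It was 0.053 by edgeR without the filter on low counts and 0.056 with the replicate number as a term. Groups that do not overlap were 4.57% of all tested genes in this direction.

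Cd1d2, the neighbouring duplicate, was at 0.699, 0.52 and 1.06 CPM in CD4-positive and 0.452, 0.296 and 0.652 CPM in CD4-negative libraries with overlapping groups, and had a log2 difference of 0.71 (95% interval -0.61 to 2.02). The annotation of C57BL/6 calls it a polymorphic pseudogene (chromosome 3, 86986551 to 86989780). The 2 genes share 14.2% of the stretches of Cd1d1 and 22.8% of those of Cd1d2, and both had fractional counts in every library. Added together, so that the division of reads between them no longer counts, they stood at 10.9, 10 and 10.2 CPM in CD4-positive and 13.1, 13.2 and 14 CPM in CD4-negative libraries, lower in each CD4-positive than in each CD4-negative library.

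**Figure D4:**
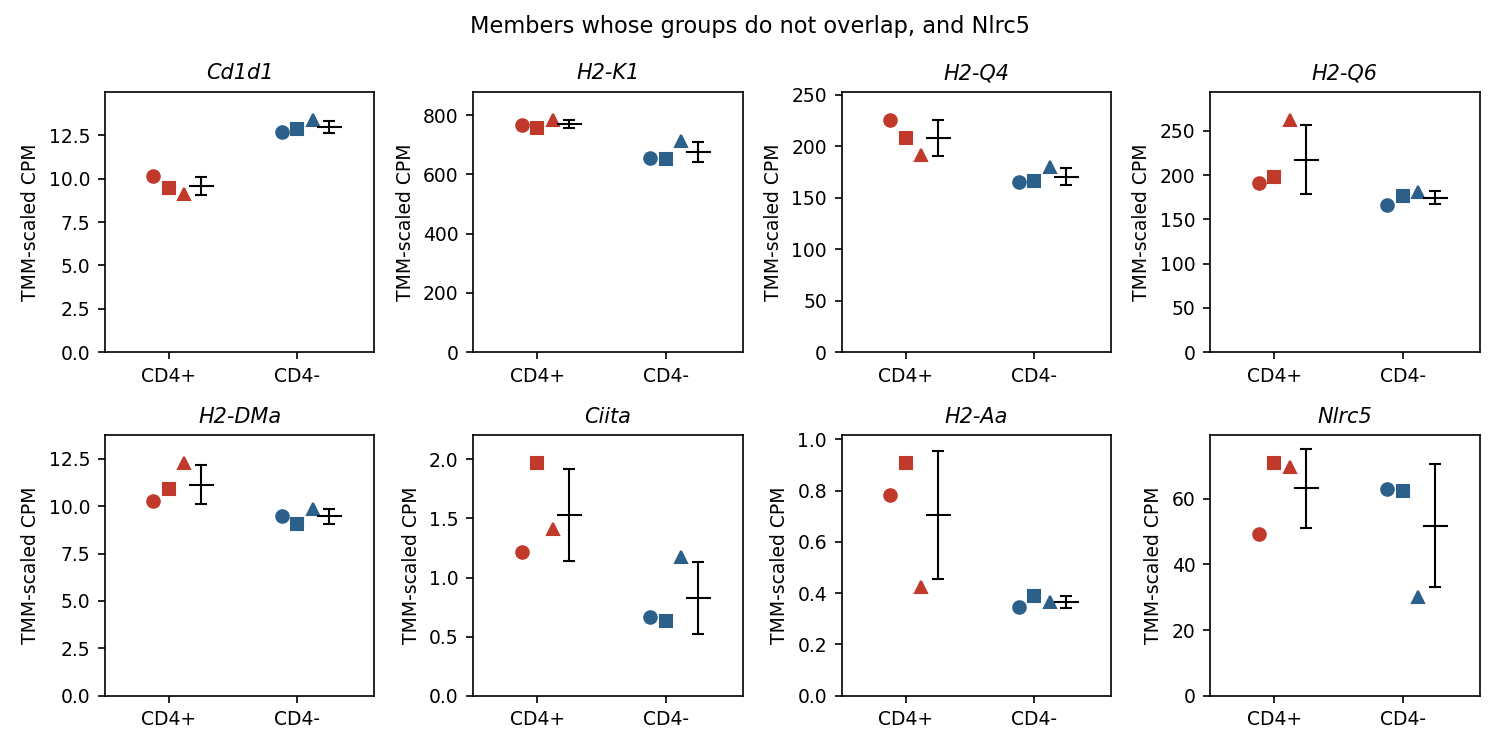
TMM-scaled CPM of the 7 members whose groups did not overlap and of Nlrc5, with each axis starting at 0; symbols are replicates 1 (circle), 2 (square) and 3 (triangle), and black marks are the mean ± SD (n = 3). Cd1d1 stood at 9.12 to 10.2 CPM in CD4-positive and 12.7 to 13.4 CPM in CD4-negative libraries, and Nlrc5 had its lowest value (30.1 CPM) in CD4-negative replicate 3.

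Of 36 other genes of antigen presentation, listed by their role, all were tested and none passed by edgeR at an adjusted p under 0.05, and none had an unadjusted p under 0.05. DESeq2 also called none, with 1 at an unadjusted p under 0.05. Their median log2 difference was 0.0049, with 18 above and 18 below 0. In 4 of the 36 the groups did not overlap, against 9.41% of all tested genes. Among the 4 were Lgmn, higher, and Ctss, lower in CD4-positive cells, with Ctss named after its values were seen. In peptide supply and class I loading 3 of the 11 tested genes had a log2 difference above 0 and the median was -0.066. Its smallest p-values were those of Mr1, the class I-like molecule that presents vitamin metabolites (29.2 ± 3.77 against 33.7 ± 1.88 CPM), and Erap1, the peptidase that trims peptides in the endoplasmic reticulum (226 ± 31.3 against 203 ± 7.54 CPM). In proteolysis and turnover of the class II pathway 4 of the 7 tested genes had a log2 difference above 0 and the median was 0.11. Ctsb (cathepsin B) was at 289.8 ± 37.1 against 228 ± 34.8 CPM and Lgmn (legumain) at 1.08 ± 0.441 against 0.538 ± 0.21 CPM.

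Among the factors that act on MHC promoters 7 of the 11 tested genes had a log2 difference above 0 and the median was 0.015. Rfxank, a subunit of the RFX complex that binds the X box, was at 21.4 ± 3.94 against 23.1 ± 2.68 CPM. For lipid loading of CD1d 4 of the 7 tested genes had a log2 difference above 0 and the median was 0.029. Npc1, a lysosomal lipid transporter, was at 36.7 ± 4.21 against 31.6 ± 4.83 CPM.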

How the data were processed

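Polyadenylated RNA of sorted NKT1 cells was sequenced in paired ends (TruSeq Stranded mRNA, HiSeq4000), per the labels' protocols. STAR, Picard, RSEM and mm10 are named, without versions or roles, per the submitters' processing notes. The authors deposited 1 table of estimated counts per gene, not normalised. The annotation and strand setting of the counting were not given in the sources used here. Columns were matched to samples by library name.

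Counts were rounded (a value was called fractional when further than 1e-06 from a whole number) and fitted across all genes in R 4.3.3 with edgeR 4.0.16: filterByExpr (12760 of 47643 genes), TMM, and a 2-sided quasi-likelihood F test between groups, with robust dispersions, with Benjamini-Hochberg adjustment at 0.05. SEs and 95% intervals come from its F statistic. The limit of 3 counts set by a count of 0 covers counting error only. CPM per kilobase uses the union of exons in GENCODE M21 (GRCm38), in which all 52 members were found. Stretches of 75 bases were compared over its transcripts, in the direction of the transcript only. Genes named are all members with a mean of at least 1 CPM, class II chains and accessory genes, transactivators and CD1d genes, and the 2 smallest p-values of each role list. Some genes that this rule names are not reported here. The NF-kappaB motif was shortened to its core after a longer form had been searched. Members, lists and alternatives were chosen with earlier results of these data known. The fit was tested on simulated data. Alternatives used DESeq2 1.42.0, limma 3.58.1, RLE scaling, no filter, unrounded counts, the replicate number or library naming scheme as a term, and each library left out.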

Additional observations from a re-analysis of the deposited data

How the results depend on the processing

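No member and none of the 36 other antigen-presentation genes passed under any of the 13 alternatives, in which the smallest adjusted p of a member was 0.414 (DESeq2, Cd1d1). The number of all genes called, 27, was 191 by DESeq2, 67 without a filter on low counts, 11 with the naming scheme as a batch term, and 0 to 44 when a library was left out (44 without CD4-negative replicate 3, 0 without any other). With the replicate number as a block 0 genes passed and 531 had an unadjusted p under 0.05. The library names of same-numbered replicates match across the groups, apart from the sort and a running number, but no shared source is stated. The deviations of same-numbered libraries from their group means correlated at -0.08, 0.34 and 0.036 for replicates 1, 2 and 3, with CD4-positive replicate 1 closest to CD4-negative replicate 3 (0.24). Of 403 log2 differences of named members under alternatives 385 kept their direction. The exceptions were in 11 members. Tap2 (-0.0046) became 0.0082 by limma-voom, 0.00029 without the filter, 0.0084 with the block and 0.0069 with the naming scheme. When a library was left out the ranges were -0.22 to 0.26 for Tapbp, -0.10 to 0.30 for H2-T23, -0.11 to 0.14 for Tap2, -0.030 to 0.22 for H2-T24, -0.039 to 0.48 for H2-Q7, -0.012 to 0.39 for H2-M3, -0.024 to 0.31 for H2-Q1, -0.77 to 0.33 for Cd74, -0.63 to 0.24 for H2-Ab1, -0.50 to 0.0010 for H2-Eb1 and -2.82 to 0.073 for H2-Ea-ps. The cause was not tested. Members whose groups did not overlap were 12 higher and 1 lower without CD4-negative replicate 3 (22.6% of all genes then tested) against 6 and 1 with it. Low counts limit what can be said of the class II genes: H2-Eb1 and H2-Aa had at most 47 counts in every library.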

Other observations

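The genes below were chosen after their values were seen and are given as values only. In the libraries with the lowest shares of mitochondrial counts, CD4-positive replicate 1 and CD4-negative replicate 3, the immunoproteasome subunit Psmb8 had its 2 highest levels, at 527, 342 and 432 CPM in CD4-positive and 358, 334 and 714 CPM in CD4-negative libraries. The chaperone Calr, which holds class I molecules for loading, likewise stood at 1579, 1175 and 1369 CPM in CD4-positive and 1152, 1102 and 1875 CPM in CD4-negative libraries. Rfx5, a subunit of the RFX complex, had its 2 lowest levels in these libraries, as Nlrc5 did, at 25.7, 40.3 and 40.7 CPM in CD4-positive and 36.9, 37.4 and 25.2 CPM in CD4-negative libraries.

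Ctsl (cathepsin L), a protease that acts on the invariant chain in thymic epithelium, stood at 3.93, 2.7 and 22.9 CPM in CD4-positive and 5.7, 2.9 and 18.8 CPM in CD4-negative libraries. It differed more between the libraries of a group than between groups, with both replicate 3 libraries high. The 7 immature thymocyte markers summed to 50.1, 18.8 and 107 CPM in CD4-positive and 56.9, 21.3 and 141 CPM in CD4-negative libraries, also highest in the replicate 3 libraries. Not every marker followed this order. Cd8b1 was at 38.3, 11.7 and 36.7 CPM in CD4-positive and 38.8, 14.9 and 83.6 CPM in CD4-negative libraries and Themis at 3.19, 2.49 and 8.87 CPM in CD4-positive and 6.22, 2.53 and 6.05 CPM in CD4-negative libraries. The replicate 3 libraries are also those whose names follow a different scheme, and its part in these values was not tested.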
